A study of Homo sapiens with 9 samples.

Results

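The lower temozolomide dose was compared with no drug in a pooled sgRNA screen of U251, an established human glioma cell line. The comparison used 6 of the series' 9 libraries: all 3 titled 200 µM and all 3 titled 0 µM, each treated library set against the untreated library of the same replicate number. The other 3 libraries, titled 1500 µM, entered only as values beside a result. All groups share the same background: U251 cells stably expressing sgRNAs, grown in DMEM with 10% serum. The labels give 72 hours of drug for the treated groups and state neither the solvent given to the untreated cells nor their time in culture. The treatment protocol gives the doses in nM and the titles in µM, so the unit is not settled and the titles' unit is used here as a name. The sources used here do not name the vector or nuclease, nor the cells per guide. Nothing in the labels says whether a replicate number marks a separate culture, so p-values reflect library-to-library spread alone, and that spread may be technical.

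Temozolomide is the standard alkylating drug of glioma therapy. It methylates DNA bases, and cells with active mismatch repair turn the methylated guanine into strand breaks, whereas the repair protein MGMT removes the methyl group. In a pooled knockout or knockdown screen each cell usually carries a single guide against a single gene, and the share of sequenced guides in the DNA stands for the share of cells that carry it. A guide lost under the drug marks cells that became fewer than the rest, and a guide gained marks cells that became more. A level here is therefore a share, and fewer cells with a guide cannot be told apart from more cells with other guides. The pool was directed mainly at the ubiquitin system, in which E1, E2 and E3 enzymes attach ubiquitin or its relatives to proteins, many of which the proteasome then degrades.

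The count table held 11170 guides against 1117 genes, 10 per gene. Tests covered the 10337 guides that reached 10 counts in 3 or more of the 9 libraries and left out the other 833. Of all guides, 218 had no count in any of the 6 libraries. Totals were 1852954, 2309361 and 1852340 counts without drug and 2068712, 1979391 and 2462866 at 200 µM, for replicates 1, 2 and 3. A count of 0 allows up to 3 counts, or 1.06 to 1.83 CPM depending on the library, where CPM are counts scaled to a common library total by the TMM method. The guide counts hold no marker of cell identity, so the labelled cell line could not be checked with them.

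Libraries of the same replicate number resembled each other more than libraries of the same dose. Across tested guides, log2(CPM + 1) correlated at 0.82, 0.88 and 0.82 between the untreated and the 200 µM library of replicates 1, 2 and 3. Between different numbers they were 0.40 to 0.46 across the 2 doses, 0.40 to 0.46 among the untreated libraries and 0.39 to 0.45 among the 200 µM libraries. These values are across guides, which are not independent, and describe the libraries without a test. The comparison was therefore made within pairs of libraries with the same number.

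The untreated library of replicate 1 stood apart from its pair. In it, 75 guides against 75 different genes reached at least 500 CPM and were at least 4-fold above the 200 µM library of replicate 1. They held 9.99% of that library's counts. No guide met the same limits in the opposite direction in pair 1, and the numbers were 3 and 5 in pairs 2 and 3, with 1 and 2 in the opposite direction. In the 1500 µM library of replicate 1, all 75 guides lay nearer to the 200 µM than to the untreated library. The same held for 3 of 3 and 4 of 5 such guides in pairs 2 and 3. Guides were picked for being high in 1 library of a pair, so the 1500 µM library is likely to lie nearer the other. All guides of the opposite direction likewise lay nearer the 200 µM library, the one in which they were high. XIAP.8, a guide against the caspase inhibitor XIAP, was the most abundant guide of the untreated library of replicate 1. It held 2.51% of that library's counts (exact Clopper-Pearson 95% interval 2.49% to 2.54%, counting error only). For several guides and genes that rest on this library, fitted changes are given with and without replicate 1. A change given without such a value may still lean on it.

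The main question of the comparison was which guides changed in the same way in all 3 pairs at 200 µM. The changes of single guides did not repeat between pairs. The log2 ratio of a guide at 200 µM over 0 µM, computed on CPM + 1, correlated at -0.02 between pairs 1 and 2, at 0.02 between pairs 1 and 3, and at 0.008 between pairs 2 and 3 (Pearson's r across 10337 guides, no test). Among the 2143 guides with a mean of at least 300 counts the 3 values were 0.002, 0.02 and 0.01, so abundant guides showed the same lack of repetition.

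**Figure D1:**
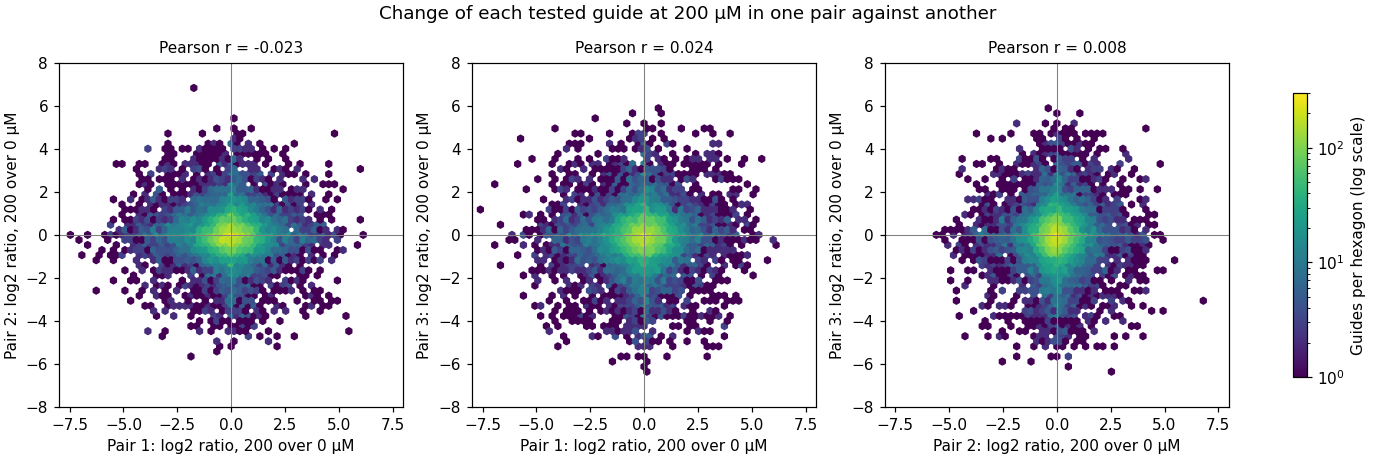
Each panel plots the log2 ratio of every tested guide (200 over 0 µM, on CPM + 1) in a pair of libraries against the same guide's ratio in another pair. Colour gives the number of guides per hexagon on a log scale. The clouds are centred on 0 and show no tilt, with Pearson's r of -0.02, 0.02 and 0.008.

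The changes were nevertheless larger than counting alone gives. The SD of the guide log2 ratios was 1.43, 1.13 and 1.31 in pairs 1, 2 and 3. A spread estimated from the median absolute deviation, which gives little weight to extreme guides, was 0.89, 0.68 and 0.81, against a median counting error of 0.20, 0.19 and 0.18 per guide. In guides with at least 300 mean counts the SD was 0.95, 0.63 and 0.74, against 0.11, 0.10 and 0.11 from counting. Of all tested guides, 33.8%, 24.2% and 29.8% differed over 2-fold within their pair. Pair 1 had the widest spread in each of these measures, and pair 2 the narrowest.

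More guides were absent at 200 µM. Among tested guides, 780, 615 and 561 had no count in untreated replicates 1, 2 and 3, and 1008, 791 and 873 had none in their 200 µM partners. The number was higher in 3 of 3 pairs, by 239 ± 69 guides (SD, n = 3 pairs; exact two-sided sign-flip permutation p = 0.25, the smallest that 3 pairs allow). Guides with 1 to 4 counts went the other way, from 289, 264 and 192 to 68, 122 and 36, lower in 3 of 3 pairs (mean difference -173 ± 42; exact permutation p = 0.25). The untreated and the 200 µM values did not overlap in either measure. Thinning every library to the lowest total left the differences, taken over all guides, in place: guides at 0 counts increased by 302 on average, and guides at 1 to 4 counts decreased by 242. At 1500 µM the same replicates had 867, 650 and 580 tested guides at 0 counts and 25, 105 and 81 at 1 to 4 counts.

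The evenness of the libraries differed less. The Gini index is 0 when all guides are equally abundant and rises towards 1 when a handful hold all counts. Over the tested guides it was 0.665, 0.640 and 0.589 without drug and 0.606, 0.611 and 0.585 at 200 µM. It was lower in 3 of 3 pairs, with differences of -0.060, -0.029 and -0.0034, of which the last was small. The most abundant guide of a 200 µM library was EP300.4 in replicate 1, with 0.410% of counts, and UBE2A.7 in replicates 2 and 3, with 0.768% and 2.60%.

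**Figure D2:**
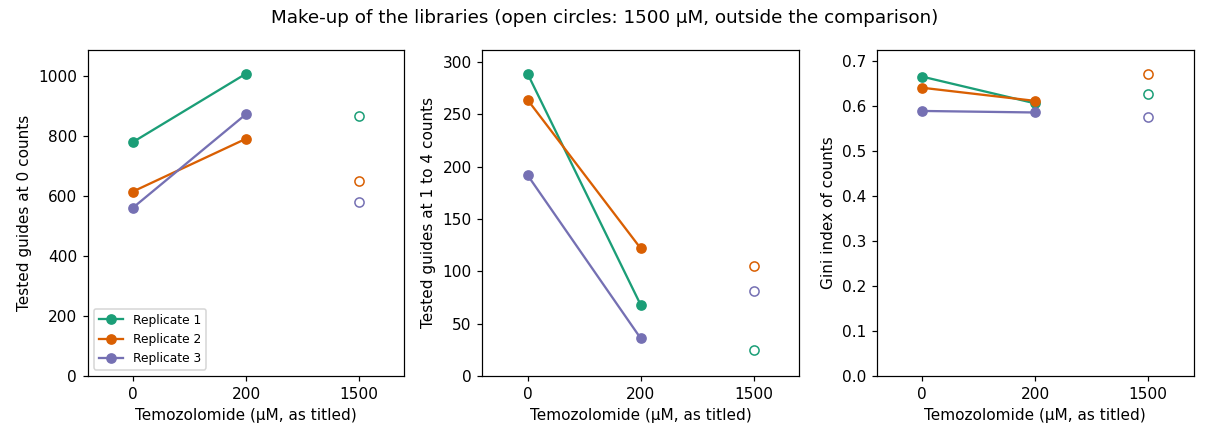
The panels plot, for each library, the tested guides at 0 counts and those at 1 to 4 counts, against the dose as titled. The last panel plots the Gini index over the tested guides. Lines join the 0 and 200 µM libraries of a replicate, and open circles are the 1500 µM libraries. Guides at 0 counts were higher and guides at 1 to 4 counts lower at 200 µM in 3 of 3 pairs.

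With a limit of 50 counts, guides that disappeared did so in different pairs. Of the guides with at least 50 untreated counts, 36 of 6325, 17 of 6975 and 48 of 7041 were at 0 in the 200 µM library of pairs 1, 2 and 3. In the reverse direction, 37 of 7091, 5 of 6952 and 48 of 7683 guides with at least 50 counts at 200 µM were at 0 in their untreated partner. None of the 101 guides lost in this sense was lost in more than 1 pair, and none of the 90 gained was gained in more than 1. Losses were rare, at 0.57%, 0.24% and 0.68% of such guides in pairs 1, 2 and 3. Little overlap was thus to be expected even from unlinked losses. With a limit of 20 counts, 12 of 492 lost guides and 12 of 379 gained guides came up in more than 1 pair. Whether either overlap differs from that of unlinked changes was not tested.

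Examples were taken from the lost and gained guides with the highest counts. SENP3.9, against the SUMO protease SENP3, had 684 counts in untreated replicate 1 and 0 at 200 µM. Replicates 2 and 3 had 1 and 5 counts without drug and 19 and 4 with it, too few to be lost by this limit. FBXW5.2, against a substrate receptor of CUL4 and SCF ligases, went from 82 to 0 in pair 2, but from 199 to 163 in pair 1 and from 121 to 171 in pair 3. CDKN1A.5, against the p53 target and CDK inhibitor p21, went from 158 to 0 in pair 3 and from 179 to 294 in pair 1. In the opposite direction, BCL2.6, against the anti-apoptotic protein BCL2, went from 0 to 151 counts in pair 1, with 23 to 22 and 29 to 34 in pairs 2 and 3. Most lost guides were seen again at the higher dose: 30 of 36, 17 of 17 and 46 of 48 had counts in the 1500 µM library of the same replicate. Fewer reached the limit of 50 counts there: 17 of 36, 3 of 17 and 29 of 48.

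No guide passed edgeR's quasi-likelihood test with the replicate number as a block: 0 of 10337 (0%) had an adjusted p under 0.05, and the lowest was 1.00. At an unadjusted p under 0.05 there were 231 guides (2.23%), 58 of them higher and 173 lower at 200 µM. DESeq2's Wald test on the same libraries and block called 6 guides (0.058%), 1 higher and 5 lower, with 423 at an unadjusted p under 0.05. The guides described next come from those 6 and from the 8 of lowest edgeR p in each direction, none of which passed edgeR.

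EP300.4 was the guide that DESeq2 called higher. EP300 is a histone acetyltransferase and transcriptional coactivator. The guide had 4099, 3680 and 4633 counts without drug and 8474, 8086 and 14907 at 200 µM, or 2497, 1766 and 2281 against 3742, 4187 and 5258 CPM. All treated levels lay above all untreated levels. The log2 fold change was 0.99 ± 0.29 (SE; edgeR's quasi-likelihood test, adjusted p = 1.00) and 1.01 ± 0.20 with DESeq2 (adjusted p = 0.0041, 3 libraries per group). It was higher in 3 of 3 pairs, and the value was 1.20 ± 0.28 without replicate 1. At 1500 µM its counts were 29490, 13108 and 10908. The other 9 tested guides against EP300 had a median log2 ratio of -0.04.

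DCUN1D1.3 moved more, but unevenly. DCUN1D1 promotes the attachment of NEDD8 to cullins. Its guide went from 2586, 1964 and 6359 counts to 4529, 12240 and 28444. The log2 ratios were 0.34, 2.75 and 1.68, so the pairs differed widely while sharing a direction. The log2 fold change was 1.58 ± 0.49 with edgeR, and DESeq2's adjusted p was 0.076. Without replicate 1 the fold change was 2.19 ± 0.36, with an edgeR adjusted p of 1.00. The other 6 tested DCUN1D1 guides had a median log2 ratio of -0.24.

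The remaining 6 higher guides were of moderate or low level. TNKS.6, against tankyrase, a poly-ADP-ribosyltransferase that marks AXIN for degradation, went from 145, 85 and 367 to 459, 227 and 860 counts (log2 fold change 1.13 ± 0.32). MKRN3.5, against a makorin RING protein, went from 120, 115 and 28 to 377, 294 and 121 counts (1.40 ± 0.40). CDCA3.5, against a cell cycle protein that acts in the degradation of the kinase WEE1, went from 22, 25 and 14 to 138, 96 and 139 (2.32 ± 0.74). Its groups did not overlap, and its values within each group were close. ANKIB1.5, against a ligase with RING domains, and DCAF6.10, against a receptor of the CUL4-DDB1 ligase, had log2 fold changes of 1.39 ± 0.43 and 1.16 ± 0.38. TCP1.4, against a subunit of the chaperonin that folds actin and tubulin, had 0, 2 and 0 counts without drug and 15, 63 and 80 at 200 µM, a ratio of 64.7 (95% counting interval 17.6 to 539). At 1500 µM its counts were 0, 0 and 4. TCP1.4 thus met the count limit for testing only through its 200 µM libraries. A high level at 200 µM was therefore a condition of its being tested. The interval covers counting error only, and guide changes within pairs were larger than counting alone gives. All 8 of these guides were higher in 3 of 3 pairs, against 10.1% of all tested guides. They were picked by low p of the paired fit, which favours a shared direction.

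The guides that DESeq2 called lower included PDZD4.5, FOXO1.6, HM13.2 and DNM1L.7. PDZD4.5, against a PDZ domain protein, had 4940, 1216 and 164 counts without drug and 1144, 504 and 63 at 200 µM. It was lower in each pair although the replicates differed more than the doses did, and the groups overlapped. Its log2 fold change was -1.89 ± 0.34 with edgeR and -1.87 ± 0.33 with DESeq2 (adjusted p = 0.00024, 3 libraries per group), and -1.52 ± 0.36 with edgeR without replicate 1. FOXO1.6, against a forkhead transcription factor that promotes cell cycle arrest, went from 860, 316 and 66 to 243, 104 and 13 counts. Its log2 fold change was -2.18 ± 0.38 with edgeR (DESeq2 adjusted p = 0.0096), and -2.13 ± 0.63 without replicate 1. HM13.2, against signal peptide peptidase, went from 467, 1537 and 183 to 234, 618 and 108 counts. Its 3 log2 ratios were close to each other at -1.45, -1.20 and -1.22, and the log2 fold change was -1.33 ± 0.27 (DESeq2 adjusted p = 0.023). The other tested guides had a median log2 ratio of -0.04 for PDZD4 (9 guides), 0.02 for FOXO1 (8 guides) and 0.02 for HM13 (8 guides).

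DNM1L.7 depended on replicate 1 for most of its counts. This guide, against the GTPase that divides mitochondria, went from 2188, 75 and 25 to 164, 19 and 0 counts. Its log2 fold change was -3.58 ± 0.71, and without replicate 1 it was -3.72 ± 2.18 (edgeR, unadjusted p = 0.14). The untreated library of replicate 1 that held most of its counts is the library described as standing apart, and its part in the call was not tested. The other 9 tested DNM1L guides had a median log2 ratio of -0.09.

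KAT5.7, UBE2L3.10 and SKP2.7 were also among the 8 lower guides. KAT5, or TIP60, is a histone acetyltransferase that acts at DNA breaks, and its guide went from 1569, 0 and 18 to 208, 0 and 0 counts. SKP2 is the F-box protein that marks p27 for degradation, and its guide went from 1440, 0 and 3 to 250, 0 and 0 counts. Both guides had no count in replicate 2 at either dose, and both rested on the untreated library of replicate 1. Without replicate 1 the log2 fold change was -5.95 ± 7.30 for KAT5.7 and -3.53 ± 8.97 for SKP2.7 (edgeR, unadjusted p = 0.45 and 0.71). UBE2L3.10, against an E2 enzyme that serves HECT and RBR ligases, went from 801, 109 and 135 to 471, 32 and 55 counts, lower in 3 of 3 pairs (log2 fold change -1.56 ± 0.33). The other tested guides had a median log2 ratio of -0.02 for KAT5 (8 guides), 0.47 for SKP2 (8 guides) and -0.44 for UBE2L3 (9 guides). Of these, 3, 6 and 1 had a mean log2 ratio above 0.

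**Figure D3:**
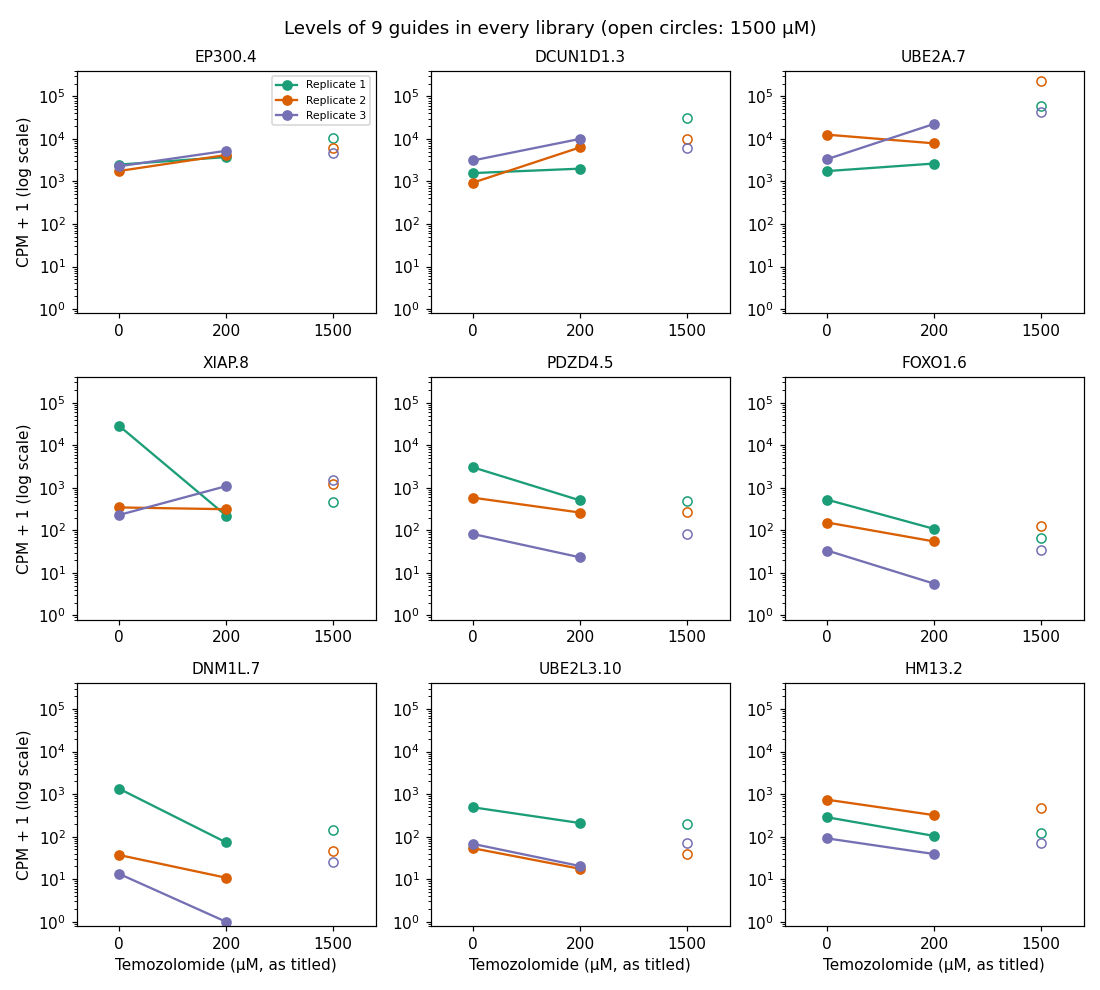
Levels of 9 guides as CPM + 1 on a log axis, by dose as titled. Lines join the 0 and 200 µM libraries of a replicate, and open circles are the 1500 µM libraries. EP300.4 and DCUN1D1.3 were higher and PDZD4.5, FOXO1.6, DNM1L.7, UBE2L3.10 and HM13.2 lower in every pair, while UBE2A.7 and XIAP.8 differed in direction between pairs.

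The most abundant guides of the libraries differed in how they changed. EP300.4 and DCUN1D1.3 were among them and were higher in 3 of 3 pairs, FBXO32.4, ARRDC3.1 and PARK7.10 were lower in 3 of 3, and others differed in direction between pairs. UBE2A.7, against the E2 enzyme that works with RAD18 at stalled replication forks, had 2879, 26200 and 6805 counts without drug and 5980, 15206 and 63921 at 200 µM. Its log2 ratios were 0.59, -0.68 and 2.75, and the fitted change was 0.83 ± 0.70. XIAP.8 had 46599, 718 and 466 counts without drug and 503, 604 and 3096 at 200 µM. Its log2 ratios were -6.99, -0.14 and 2.25, which spans losses and gains. Other abundant guides kept to a single replicate at both doses. PARK7.10, against the oxidative stress protein DJ-1, had 54, 6075 and 153 counts without drug and 44, 5022 and 142 with it, and UBE2V2.2, against an E2-like partner of UBE2N, had 10, 4 and 5271 against 4, 12 and 6178. MDM2.1, against the main ubiquitin ligase of p53, had 4726, 191 and 62 against 6156, 143 and 143 counts.

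A looser count gave guides that moved the same way in all 3 pairs, without a test. Of 10337 guides, 1044 (10.1%) were higher and 1432 (13.9%) were lower in all 3 pairs on TMM-scaled CPM. Scaling by total counts turned that split to 15.5% higher and 8.46% lower, so its direction rests on the scaling. Over 2-fold in every pair, 49 guides (0.474%) were higher and 66 (0.638%) lower. The 49 were scarce without drug: their median mean count was 13.7 at 0 µM and 55.3 at 200 µM, and 27 of them had no count in some untreated library. The 66 mirrored them, with 55.5 against 16.8 counts, and 46 had no count in some 200 µM library. Members near 0 counts in the group where they are low were thus common in both sets. Such members may have met the count limit for testing largely through the group where they were high. The sizes of the sets are therefore a description only.

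Few genes had more than 1 such guide. CDCA3 and MAEA each had 2 guides over 2-fold higher in all 3 pairs. FBXO44, GRWD1, LTBR, MOCS3 and SUPT3H were among those with 2 that were lower. These genes were named after their values were seen, and the 49 and 66 guides came from 47 and 60 genes.

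The guides of a gene were then summed, which asks whether the gene as a target changed. None of 1117 genes passed edgeR with the block (lowest adjusted p = 0.81), 24 were higher (2.15%) and 36 lower (3.22%) at an unadjusted p under 0.05, and DESeq2 called 1 gene, EP300. EP300's summed counts were 5573, 5009 and 5925 without drug and 10622, 9205 and 17087 at 200 µM. The log2 fold change was 0.94 ± 0.35 with edgeR (adjusted p = 0.81) and 0.95 ± 0.14 with DESeq2 (adjusted p = 3.67e-08, 3 libraries per group). EP300.4 alone held 82.1% of that sum over the 6 libraries. Summed changes repeated weakly between pairs, with r of 0.03, 0.02 and 0.13 across 1117 genes, described without a test. The median gene's summed log2 ratio was -0.14, -0.07 and -0.11 in pairs 1, 2 and 3, and edgeR's own scaling of the sums places the fitted values above those ratios.

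Leaving out replicate 1 brought 17 genes past edgeR's threshold, 5 higher and 12 lower; leaving out replicate 2 or 3 brought none. With 2 pairs left, the highest changes were those of DCUN1D1 (2.11 ± 0.43; adjusted p = 0.00033, edgeR), EP300 (1.10 ± 0.27) and ESCO1 (0.78 ± 0.18), an acetyltransferase of cohesin. DCUN1D1.3 held 76.2% of the DCUN1D1 sum and ESCO1.1 held 55.4% of the ESCO1 sum. XIAP turned direction: its sums were 47043, 1761 and 1029 without drug and 1589, 1589 and 3738 at 200 µM, and its log2 fold change was -0.76 ± 1.39 with all pairs and 0.76 ± 0.17 without replicate 1 (adjusted p = 0.0022, edgeR). The sum did not rise in pair 2, so the gain without replicate 1 rested on pair 3. XIAP.8 held 91.6% of the XIAP sum over the 6 libraries. RNF139, an ER membrane ligase, had 2048, 4914 and 1440 against 2479, 2085 and 1323 counts and changed by -0.78 ± 0.14 without replicate 1. FBXW4, FBXO32, MVB12A, ASB18, NEDD4, SUZ12, CBX8, CDKN1A, KLHL21, PIAS2 and PSMA3 were the other genes lower without replicate 1, and KCTD19 was the other higher gene. PSMA3 rested on 13 and 21 counts against 3 and 0, and in pair 1 its counts went from 86 to 298.

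The 8 genes of lowest p among those with higher sums were MAEA, KCTD11, TNKS2, RALB, KLHL3, SPOPL, CUL5 and JKAMP, all with an edgeR adjusted p of 0.81. MAEA, the catalytic RING subunit of the CTLH ligase, had summed counts of 441, 871 and 1818 without drug and 861, 1161 and 3116 at 200 µM. It was higher in every pair although the replicates overlapped between doses, with a log2 fold change of 0.54 ± 0.14. TNKS2, the other tankyrase, had 3092, 1190 and 1388 against 4806, 1333 and 2561 counts (0.39 ± 0.12), and 9 of its 10 guides had a mean log2 ratio above 0. KCTD11, KLHL3 and SPOPL are adaptors of CUL3 ligases and had log2 fold changes of 0.55 ± 0.16, 0.50 ± 0.16 and 0.43 ± 0.14. CUL5, a cullin scaffold, was at 0.44 ± 0.15, the small GTPase RALB at 0.41 ± 0.13, and the membrane protein JKAMP at 0.45 ± 0.15. Without replicate 1 their fold changes lay between 0.31 (KLHL3) and 0.62 (KCTD11), and none passed.

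The 8 genes of lowest p among those with lower sums were FBXO32, SENP3, MARCH1, MVB12A, RNF126, TRAF3, TRIM24 and XBP1, also at an edgeR adjusted p of 0.81. FBXO32, the muscle F-box protein atrogin-1, had 1304, 7888 and 2147 counts without drug and 1076, 4093 and 2139 at 200 µM, with a log2 fold change of -0.58 ± 0.14. Its guide FBXO32.4 went from 158, 5138 and 784 to 141, 1600 and 517 counts. FBXO32.4 held 44.7% of the sum over the 6 libraries, and the other 8 tested guides had a median log2 ratio of -0.10. MARCH1, a membrane ligase that down-regulates MHC class II, had 2270, 4910 and 1312 against 1492, 3705 and 1250 counts (-0.53 ± 0.15). TRIM24, a chromatin reader and p53 ligase, was at -0.60 ± 0.19, and -0.33 ± 0.16 without replicate 1. SENP3 was at -0.46 ± 0.13, the ESCRT-I subunit MVB12A at -0.48 ± 0.14, the quality control ligase RNF126 at -0.46 ± 0.14, the NF-kappaB adaptor TRAF3 at -0.48 ± 0.15, and XBP1, a transcription factor of the unfolded protein response, at -0.43 ± 0.14. FBXO32 and MVB12A passed without replicate 1, with edgeR adjusted p-values of 0.0051 and 0.013. All 16 higher and lower genes had the same sign in 3 of 3 pairs. They were picked by low p of the paired fit, which favours a shared sign.

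**Figure D4:**
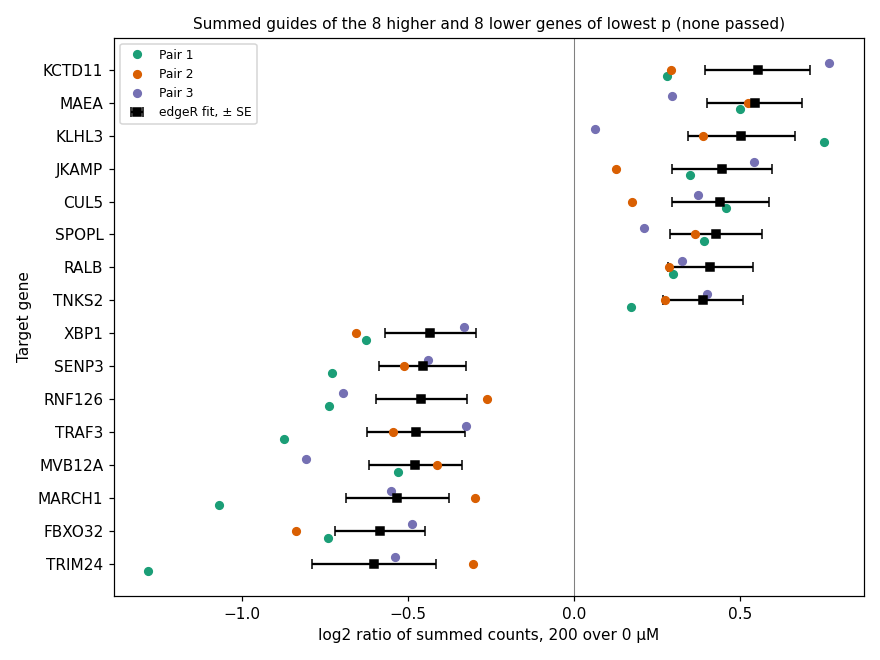
Log2 ratios of summed counts (200 over 0 µM) for the 8 higher and the 8 lower genes of lowest edgeR p. Coloured points are the 3 pairs on CPM, and black squares are edgeR fits with their SE, which use edgeR's own scaling of the sums. All 16 genes had the same sign in 3 of 3 pairs, which picking by low p favours, and none passed the test.

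Agreement among a gene's guides was another way to rank targets. Among the 1017 genes with at least 8 tested guides, SPOPL had 5 of 10 guides higher in all 3 pairs, and TNKS2, MAEA, KCTD11, CASP10 and PATZ1 had 4 each, against 10.1% of all tested guides. MARCH1 had 7 of 10 guides lower in all 3 pairs, against 13.9% of all tested guides, and a median guide log2 ratio of -0.67 (SD 0.58 over guides). WSB1, UBE3D, RING1, FBXO27 and FBXO10 had 5 lower guides each. FBXO27, an F-box protein that binds glycoproteins, had no guide of 10 with a mean above 0, with a median of -0.41. The measures parted for PATZ1, whose sums changed by 0.05 ± 0.14, with pairs at -0.32, 0.14 and -0.0037 on CPM. WSB1's sums changed by -0.02 ± 0.12 on edgeR's own scaling of the sums. On CPM its pairs were at -0.17, -0.09 and -0.13, the direction of its lower guides. Genes were ranked by this share, so their counts are a description.

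Over all 1117 genes the median of a gene's guide ratios was above 0 for 454 and below 0 for 663, with a median of -0.06. With total-count scaling the median gene was at 0.09 and 746 genes were above 0, so changes of groups are read against the median of all genes. In all 3 pairs, 95 genes (8.5%) had a median above 0 and 187 (16.7%) a median below 0. Across the 1017 genes with at least 8 tested guides, gene medians correlated at -0.02, 0.13 and 0.03 between pairs.

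Targets tied to the drug's known biology gave little to measure. MGMT and DOK6 were not among the genes of the table, and none of the genes listed for base excision repair was. FBXO5, an inhibitor of the anaphase-promoting complex that the series title names, had summed counts of 20, 243 and 62 without drug and 28, 168 and 30 at 200 µM. The log2 fold change was -0.55 ± 0.53 with edgeR (unadjusted p = 0.33, adjusted p = 0.84), and the pairs were at 0.02, -0.42 and -1.44. Only 4 of its 10 guides were abundant enough to test, and none of the 4 was lower in all 3 pairs. The median of their mean log2 ratios was -1.06, while the medians within pairs 1, 2 and 3 were smaller in size at -0.75, -0.04 and -0.15.

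Gene groups were described by the median over genes of each gene's median guide log2 ratio, and a level named for a gene in the groups is that gene's own median. No gene of any group passed the edgeR test on summed counts. Of 24 groups with a measured gene, 18 lay above and 6 below the median of all genes. Of the 24, 16 changed side when a pair was left out and 2 with total-count scaling, and 8 kept their side in all of these.

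DNA damage groups had medians on both sides of 0. The 9 measured genes of the histone ubiquitin response to breaks had a median of 0.12, with pairs at 0.26, 0 and 0.04. Within it RNF40, which ubiquitinates histone H2B, was highest at 0.55 and RNF8, the ligase that starts the response, lowest at -0.32. The 10 genes of damage tolerance around RAD6 and RAD18 had a median of -0.03. UBE2B, a RAD6 enzyme like UBE2A, was at 0.51, with pairs at 0.28, -0.21 and 0.99, while MAD2L2, a subunit of translesion polymerase zeta, was at -0.66, with pairs at -0.18, 0.08 and -1.09. Fanconi anaemia genes had a median of 0.03 over 4 genes, from UBE2T, the E2 of the pathway, at 0.29 to FANCF at -0.11. Homologous recombination was at -0.016 over 5 genes, with the helicase FBXO18 lowest at -0.13, BRCA1 at -0.07 and its partner BARD1 at 0.05. The 10 ligases that act on p53 had a median of -0.08, and TRIM24 was lowest among them.

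Proteasome and mitotic targets were spread on both sides of 0. The 19 genes of the 20S core had a median of -0.0049, with PSMB5, a catalytic subunit, at 0.74 over 6 guides and PSMB3 at -0.57 over 2 guides. PSMB5's sums were 216, 81 and 49 without drug and 206, 105 and 143 at 200 µM (log2 fold change 0.42 ± 0.47). The 18 genes of the 19S cap were at -0.018, from the ATPase PSMC6 at 0.52 to PSMD1 at -0.67. PSMD1's pairs were at -0.35, 0.22 and -0.01, and its sums changed by 0.23 ± 0.25. The 20 genes of the anaphase-promoting complex had a median of 0.09, with the small subunit CDC26 at 0.86 over 5 guides and FBXO5 at -1.06 over 4. FBXO5's medians within pairs, given above, were smaller in size. Mitotic kinases and checkpoint genes were at -0.18 over 9 genes, from PLK1 at 0.33 to MAD2L1 at -0.64. The 9 cyclins, CDKs and CDK inhibitors were at -0.25, the lowest of the groups, yet their pairs were at 0.25, 0.07 and -0.13. CCNB1, the mitotic cyclin B1, was at -0.63, and its pairs were at -0.99, -0.32 and -0.48.

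Groups of the cullin ligases differed in how single guides weighed on them. The 8 neddylation genes had a median of 0.16, with pairs at -0.12, 0.26 and -0.13, and RNF7 was highest at 0.61 and the E2 enzyme UBE2F lowest at -0.46. Their summed counts changed by -0.21, 1.49 and 1.14 in the 3 pairs, in which DCUN1D1.3 was the abundant guide. Cullins and the COP9 signalosome were at -0.02 over 10 genes, from the exchange factor CAND1 at 0.60 to CUL3 at -0.35. CAND1's pairs were at -0.13, 0.57 and -0.08. The 20 genes of CUL4-DDB1 ligases were at -0.04, from DDB1 at 0.43 to DTL, the receptor that removes CDT1, at -0.35. HECT ligases were at -0.06 over 27 genes, with HUWE1 at 0.95. HUWE1's sums were 111, 370 and 253 without drug and 192, 275 and 345 at 200 µM, a change of 0.09 ± 0.33, far below its guide median.

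Polycomb targets lay below the median of all genes in each pair. Polycomb complexes silence genes by modifying histone H2A and H3. The 13 measured genes had a median of -0.18, with pairs at -0.19, -0.06 and -0.31 against -0.018, -0.0047 and -0.058 for all genes. Of the 13, 10 had a median below 0, against 663 of 1117 genes, and 4 were below 0 in all 3 pairs, against 16.7% of all genes. In addition, 3 were lower in the summed fit at an unadjusted p under 0.05, set against 3.22% of all genes. SUZ12, a core subunit of the H3 methyltransferase complex, was lowest at -0.75, with sums of 983, 4235 and 727 without drug and 1121, 3037 and 501 at 200 µM (log2 fold change -0.44 ± 0.18; edgeR, unadjusted p = 0.038). PCGF6 was at -0.50, RING1, the ligase of H2A, at -0.41, and PHC1 and KDM2B were highest at 0.06 each. Of the group's 123 tested guides, 18.7% were lower and 7.32% higher in all 3 pairs, against 13.9% and 10.1% of all tested guides, a split that turns with total-count scaling.

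Targets of the E1 enzymes and chaperones lay above the median of all genes. The 10 E1 enzymes, which activate ubiquitin and its relatives, had a median of 0.14 with pairs at 0.05, 0.13 and -0.05, and 7 were above 0, against 454 of 1117 genes. SAE1, a subunit of the SUMO-activating enzyme, was highest at 0.27 and its partner UBA2 lowest at -0.19. The 6 chaperone genes had a median of 0.20 with pairs at 0, 0.30 and 0.03. HSPA9, the mitochondrial HSP70, was at 0.92 over 3 guides, and its sums were 71, 21 and 178 against 115, 71 and 156 counts. SUMO and UFM1 genes were at -0.03 over 21 genes, from PIAS1 at 0.51 to SUMO2 at -0.85.

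The remaining groups had medians close to that of all genes. NF-kappaB ligases and adaptors were at -0.08 over 20 genes, from TRAF1 at 0.54 to TRAF2 at -0.56, and 6 of the 20 were below 0 in all 3 pairs, against 16.7% of all genes. Inhibitor of apoptosis genes were at -0.05 over 8 genes, from BIRC3 at 0.41 to BIRC8 at -0.41, and their summed counts changed by -2.27, -0.18 and 0.18 in the 3 pairs, with XIAP.8 the abundant guide. Wnt regulators were at 0.03 over 11 genes, 2 of them higher at an unadjusted p under 0.05 against 2.15% of all genes, with TNKS2 highest at 0.48. Mediator was at 0.04 over 15 genes, from MED11 at 0.74 to MED24 at -0.45. The CTLH ligase was at -0.0034 over 11 genes, from RANBP9 at 0.45 and MAEA at 0.44 to MKLN1 at -0.26 and YPEL5 at -0.30. MKLN1's sums changed by -0.51 ± 0.19. ER-associated degradation was at -0.04 over 16 genes, from the ATPase VCP at 0.34 to DERL1 at -0.70.

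**Figure D5:**
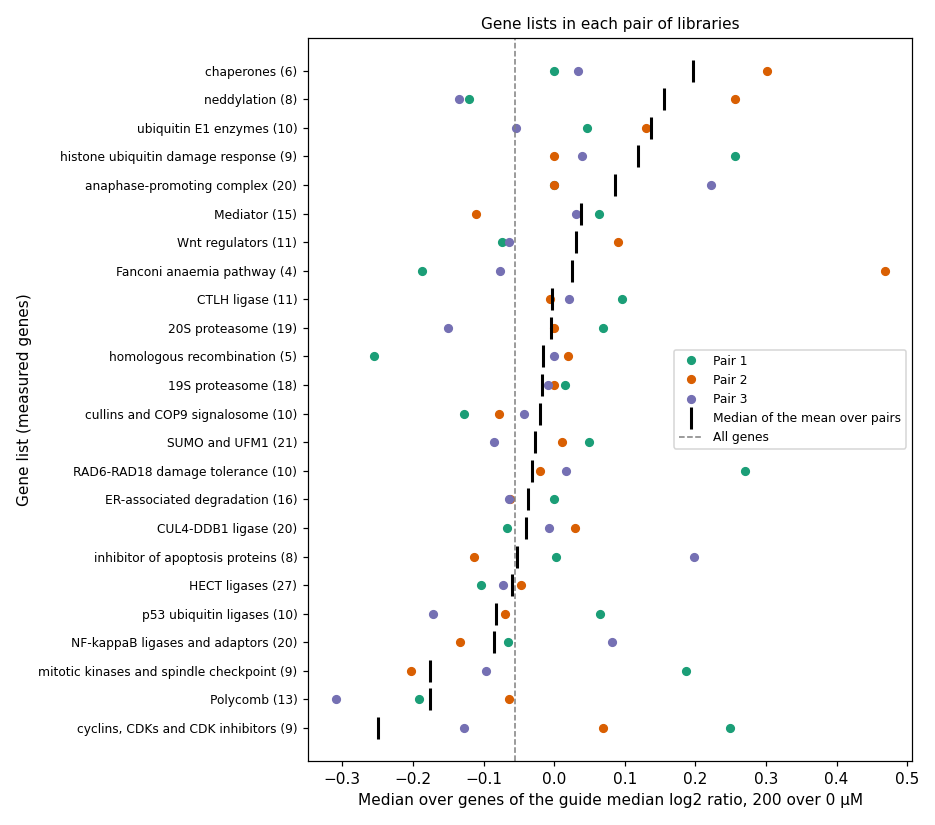
Median over the measured genes of a group (number in brackets) of the gene's median guide log2 ratio, 200 over 0 µM. Coloured points are the 3 pairs, black bars the mean over pairs per guide, and the dashed line is the median of all genes at -0.06. Polycomb lay below the line and the E1 enzymes and chaperones above it, and most groups had pairs on both sides of 0.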

How the data were processed

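The authors deposited raw sgRNA counts of all 9 libraries in 1 table, with guide and gene names. Per the submitters' processing notes, cutadapt 1.18 and MAGeCK 0.5.8 were used and hg19 was named; the sources used here do not give the counting settings. Guides that reached 10 counts in 3 or more of the 9 libraries were tested, on the deposited counts, with edgeR 4.0.16 (R 4.3.3; TMM, robust quasi-likelihood fit, Benjamini-Hochberg adjustment, threshold 0.05) in the 6 libraries, with the replicate number as a block. An SE was derived from edgeR's F as the size of the log2 fold change divided by √F. Alternatives were DESeq2 1.42.0, limma-voom (limma 3.58.1), no block, other scalings, filters and pseudocounts, and leaving out each replicate. The fits were tested on simulated data.

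The pairing by replicate number came from the labels' numbers and was checked on the counts. Deviations from the dose means correlated at 0.70, 0.76 and 0.70 between libraries of the same number and at -0.44 to -0.28 between others. Deviations cancel out within a dose, so the negative values follow in part from the calculation. Levels were CPM on TMM-scaled totals of all 9 libraries, log2 ratios used a pseudocount of 1 CPM, which understates changes of scarce guides, and library measures had exact sign-flip tests. Intervals and floors cover counting error only.

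Named were the guides past DESeq2, the 8 guides and 8 genes of lowest edgeR p per direction, 6 genes per direction by the share of guides that moved alike in all pairs, the 3 most abundant guides per library, FBXO5 and drug-related genes, and the 2 highest and 2 lowest genes of each group, of which the text gives a selection, and some items are not reported here. Of 26 groups, 2 had no measured gene. The groups, rules and members were chosen with earlier results of these data known, and no group was tested for enrichment. Gene names are the table's: 1076 of 1117 are current in RefSeq (GRCh38.p14), and MARCH1 is now MARCHF1. Guide sequences were not used here, and no coordinates are given.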

Additional observations from a re-analysis of the deposited data

Results flagged for a closer look

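UBE2A.7 stood out in libraries that the comparison of 200 with 0 µM does not use. Its lowest level among the 3 libraries at 1500 µM was 44033 CPM, above its highest level of 12576 CPM without drug and of 22544 CPM at 200 µM. The guide targets the E2 enzyme UBE2A, and at 200 µM its direction differed between pairs.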

How the results depend on the processing

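With the replicate block, edgeR called 0 guides and 0 genes, and without replicate block it also called 0 guides (14 at an unadjusted p under 0.05) and 0 genes (0 unadjusted). DESeq2 called 6 guides and 1 gene, and limma-voom 11 guides, 1 higher and 10 lower, and 0 genes. Leaving out each replicate gave 0 guides and between 0 and 17 genes; the 17 came without replicate 1. Total-count scaling gave 15.5% of guides higher and 8.46% lower in all 3 pairs and 746 genes with a median above 0. The 115 guides over 2-fold the same way in all pairs became 50 with a pseudocount of 5 CPM and 58 with at least 50 counts required. The 16 guides of lowest edgeR p, chosen by p on these libraries, kept their direction in 188 of 188 alternative values and passed in 11. The 16 genes chosen in the same way kept it in 192 of 192 and passed in 2. XIAP, outside those 16 genes, changed from -0.76 to 0.76 without replicate 1, a gain that rested on pair 3. Group medians moved by more than their SD over pairs in 29 of 144 values. The 2 thinned measures of guides at 0 or 1 to 4 counts were chosen after seeing the data. With 3 pairs, exact tests of library measures cannot go below 0.25, and guides near 0 counts have little precision at these depths.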
